A study of Homo sapiens with 6 samples.

Results

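The 79 genes described here encode the proteins of the cytosolic ribosome and the translation factors whose mRNAs carry a terminal oligopyrimidine (TOP) sequence. They were taken from 57820 annotated genes by name, as cytosolic RPL and RPS genes other than RPS27A together with RPLP0, RPLP1, RPLP2, RPSA and 8 named TOP genes, provided that the normalised count averaged at least 500 over all libraries. A normalised count is a gene's read count divided by its library's scaling factor. The members were 41 large subunit proteins, 28 small subunit proteins including RPSA, the 3 proteins of the P stalk, the 4 elongation factor genes EEF1A1, EEF1B2, EEF1D and EEF2, and the 3 further TOP genes TPT1, PABPC1 and NACA. In all, 84 names matched, and 5 were under the minimum, among them EEF1G, listed at 0 in every library, RPL36A with 191, RPS10 with 234 and RPL17 with 332. Just above the minimum stood RPL26 with a mean of 729 and RPL39 with 1170.

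The study profiled polyadenylated RNA of U2OS, a human osteosarcoma cell line, after 4 h in 5 µM NMS-873 dissolved in DMSO, against 4 h in 0.05% DMSO alone, with 3 libraries in each group. NMS-873 inhibits the ATPase VCP, or p97, which extracts ubiquitylated proteins from membranes and complexes for degradation, and the comparison asks how the RNA of these cells responds to it. All libraries came from the same line and were sequenced together on 1 flow cell. The labels do not say whether the replicates were separate cultures, so the spread between these libraries may be technical. A p-value of the treatment test rests mostly on a variance trend over all genes (prior degrees of freedom 250.84). It rests little on each gene's own spread.

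Ribosomal proteins are made in matched amounts from many separate genes, one for most proteins. Their mRNAs begin with a C followed by a run of pyrimidines, the TOP sequence, through which the kinase mTORC1 and the binding protein LARP1 regulate their translation and stability together. Surplus ribosomal proteins that do not enter a ribosome are ubiquitylated and degraded, and VCP acts in ribosome-associated quality control, where stalled nascent chains are pulled from the large subunit.

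Between 21132311 and 22488952 reads per library fell in annotated genes, and the added spike-in RNAs took 0.358% to 0.386% of reads. NMS-873 replicate 1 stood apart from the other 2 NMS-873 libraries: the chi-square per degree of freedom over genes was 6.84 and 7.27 against them, while those 2 differed from each other by 1.72, and DMSO pairs by 1.47 to 3.34, the larger values involving DMSO replicate 3. Of the mesenchymal markers of the line, SPARC, COL1A1, VIM and CDH2 were abundant, RUNX2 was low and COL1A2 stood near 10. Of the 5 tested, 3 were lower with NMS-873, against 33% of all genes tested. VIM averaged 41526 ± 1890 normalised counts in NMS-873 libraries and 47682 ± 2228 in DMSO libraries (SD, n = 3 each). COL1A1 averaged 35845 ± 2511 with NMS-873 and 48278 ± 1693 with DMSO, and RUNX2 117 ± 8.76 with NMS-873 and 228 ± 12.1 with DMSO. Of the osteoblast maturation genes, SP7, IBSP and BGLAP were at or near 0, while ALPL averaged 274 ± 4.44 with NMS-873 and 317 ± 41.4 with DMSO and passed as lower (limma, adjusted p = 0.0413). Of markers of other cell types, HBB was at 0, and EPCAM averaged 73.5 with NMS-873 and 77.3 with DMSO, CDH1 34.1 with NMS-873 and 33.9 with DMSO, and PTPRC 7.69 with NMS-873 and 13.3 with DMSO. EPCAM, CDH1 and PTPRC did not pass the test. The part of these marker changes in the results was not tested.

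The TOP sequence was looked for in RefSeq's start windows (assembly GRCh38.p14), as a C at the annotated start followed by at least 4 bases that are each C or T, read on the transcribed strand only. It stood at the annotated start of 48 of the 63 members that had a window (76.2%), against 419 of 5527 other genes of the same minimum level (7.58%) and 5.14% of all 27305 symbols with a window. Allowing the motif to begin up to 10 bases on either side of the start gave 59 of 63 members (93.7%), against 41.9% of those other genes and 38.4% of all symbols. A match describes the letters at an annotated position, which need not be the start used in these cells.

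The windows of 10 members are printed from 10 bases before the annotated start, over 30 bases, 5′ to 3′ on the gene's own strand, because the results turn on the low or high fold changes of most of them, while RPL41 has the shortest coding sequence and EEF1A1 and RPL4 the highest read counts. Capitals mark the motif nearest the start, from its first C to the end of the pyrimidine run, which in some genes also extends before that C. RPS26, RPS25, RPL35 and RPL41 were among the lower members with NMS-873, and RPL12, TPT1, RPL10A and EEF2 among the higher ones.
RPS26: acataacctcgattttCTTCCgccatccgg
RPS25: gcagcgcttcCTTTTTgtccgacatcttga
RPL35: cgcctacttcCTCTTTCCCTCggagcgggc
RPL41: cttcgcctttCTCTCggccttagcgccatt
RPL12: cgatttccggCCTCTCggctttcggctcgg
TPT1: ctgagtcggcCTTTTCCgcccgctcccccc
RPL10A: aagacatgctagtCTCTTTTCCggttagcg
EEF2: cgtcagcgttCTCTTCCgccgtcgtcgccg
EEF1A1: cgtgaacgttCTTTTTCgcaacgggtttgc
RPL4: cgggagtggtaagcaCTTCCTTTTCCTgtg
The windows lie at chr12:56041908-56041937 (plus strand) for RPS26, chr11:119018324-119018353 (minus) for RPS25, chr9:124861938-124861967 (minus) for RPL35 and chr12:56116623-56116652 (plus) for RPL41. They lie at chr9:127451387-127451416 (minus) for RPL12, chr13:45341164-45341193 (minus) for TPT1, chr6:35468391-35468420 (plus) for RPL10A, chr19:3985444-3985473 (minus) for EEF2, chr6:73521013-73521042 (minus) for EEF1A1 and chr15:66504836-66504865 (minus) for RPL4, all in GRCh38.p14. In RPS26, RPL10A and RPL4 the motif began 7, 4 and 6 bases into the annotated transcript, counting the start as position 1, and in the other 7 it began at position 1. The lowest and the highest members by fold change thus included genes with the motif at the annotated start and genes with it a few bases further on.

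Per length, the members spanned a 95.4-fold range of levels in FPKM, with a median of 213 FPKM over both groups. FPKM here are the reads scaled by gene model length and by the spike-in scaling factor of the library. RPS12, a small subunit protein, had the highest level, at 1073 ± 58.0 FPKM in NMS-873 libraries and 1145 ± 65.7 FPKM in DMSO libraries (SD, n = 3 each). EEF1A1, which brings aminoacyl-tRNA to the ribosome, followed at 995 ± 33.3 FPKM in NMS-873 libraries and 1003 ± 47.6 FPKM in DMSO libraries. RPL8 of the large subunit came next, at 747 ± 34.4 FPKM in NMS-873 libraries and 762 ± 43.0 FPKM in DMSO libraries. The mean ± SD ranges of RPS12 and EEF1A1 overlapped in NMS-873 libraries and not in DMSO libraries, and RPL8 lay below both. The lowest 3 were RPL39 with 24.2 ± 0.837 FPKM in NMS-873 libraries and 25.8 ± 2.19 FPKM in DMSO libraries, then RPL26 and RPS15A. RPS15A, the lowest, had 11.5 ± 0.229 FPKM in NMS-873 libraries and 11.7 ± 0.651 FPKM in DMSO libraries. FPKM divides by the whole exon length of the gene model, and reads shared with overlapping genes or near-identical copies may be missing from a row, so the order between genes is that of this table.

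**Figure D1:**
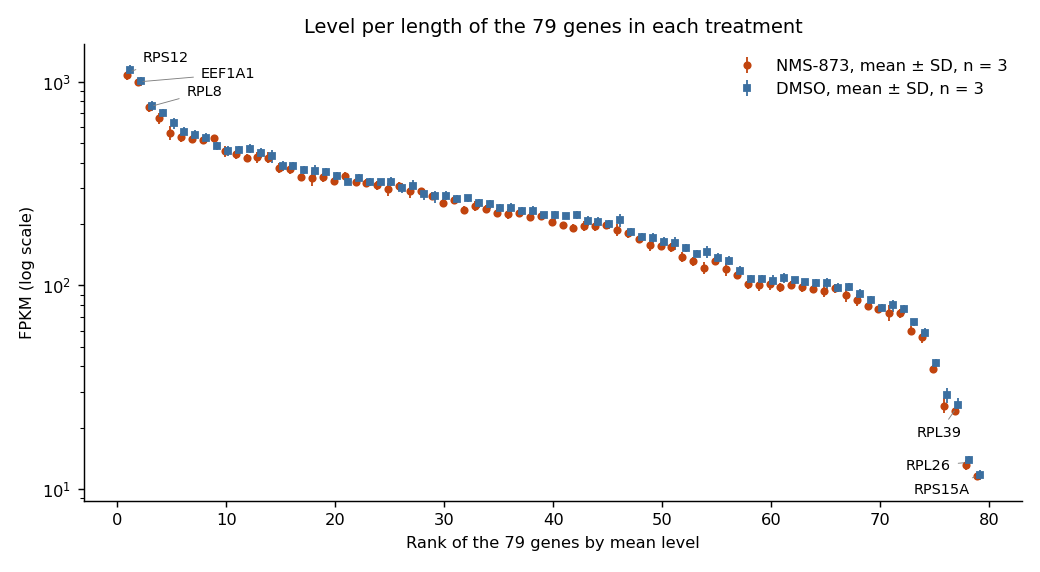
Level of each of the 79 genes in FPKM (log scale), ranked by the mean over all libraries, with the mean ± SD of the 3 NMS-873 libraries (circles) and of the 3 DMSO libraries (squares). The levels run between 1109 FPKM for RPS12 and 11.6 FPKM for RPS15A as means over all libraries, and the symbols of the 2 treatments lie close together along the whole range.

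As a whole the group took almost the same share of the cells' reads in both treatments. The 79 genes together held 5.97%, 6.32% and 6.22% of all reads in genes in NMS-873 libraries, against 6.23%, 6.34% and 6.59% in DMSO libraries. The mean was 6.17 ± 0.179% with NMS-873 and 6.39 ± 0.185% with DMSO (SD, n = 3 each), and the 2 groups overlapped. Large subunit genes held 2.62 ± 0.0908% of reads with NMS-873 and 2.74 ± 0.0817% with DMSO. Small subunit genes held 1.92 ± 0.0574% with NMS-873 and 2.03 ± 0.0595% with DMSO. The 4 elongation factor genes held 0.935 ± 0.0135% with NMS-873 and 0.920 ± 0.0212% with DMSO. In the last pair the NMS-873 mean was the higher one, and in both subunit pairs the DMSO mean was. These shares do not depend on the spike-ins.

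Gene by gene, each change was small and most members lay slightly below their DMSO level. No member was higher and 14 of 79 were lower with NMS-873 (limma on log2 normalised counts scaled by the spike-ins, Benjamini-Hochberg adjusted p under 0.05 over 14889 genes). That is 17.7% of the members, against 33% lower and 14.9% higher among all genes tested, and 33.9% lower and 20.7% higher among the 7158 genes that averaged at least 500. Of the 795 genes that averaged at least 5000, nearer to the members' own median of 13432, 27.4% were lower and 17.5% higher. At an unadjusted p under 0.05, 0 members were higher and 20 lower, and the share of all genes at that threshold is not given here. With voom on the whole reads and the adjusted threshold, 1 was higher and 17 lower, against 14.9% and 33% of all genes tested. In bulk libraries, less RNA per cell and fewer cells cannot be told apart.

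The fold changes lay in a narrow band. The log2 fold change was below 0 in 74 of the 79 members, against 9912 of all 14889 genes tested. The members had a median of -0.08 and an interquartile range of 0.07. The median over all genes tested was -0.10 with an interquartile range of 0.35, and over the other genes with a mean of at least 500 it was -0.06 with an interquartile range of 0.27. The 72 members with a mean of at least 5000 had an interquartile range of 0.06, against 0.21 for the 723 other genes at that level. No member changed by 1.2-fold or more in either direction, whereas 38.5% of all genes tested, 26% of those of at least 500 and 19.2% of those of at least 5000 did. The highest standard error of a member's log2 fold change was 0.09 and the lowest 0.05, so many of these differences are near the limit of what 3 libraries against 3 resolve. All 3 NMS-873 libraries were below all 3 DMSO libraries in 18 members (22.8%), against 37.2% of all genes tested and 38.1% of those of at least 500. In no member were they all above, against 16.4% and 22%.

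**Figure D2:**
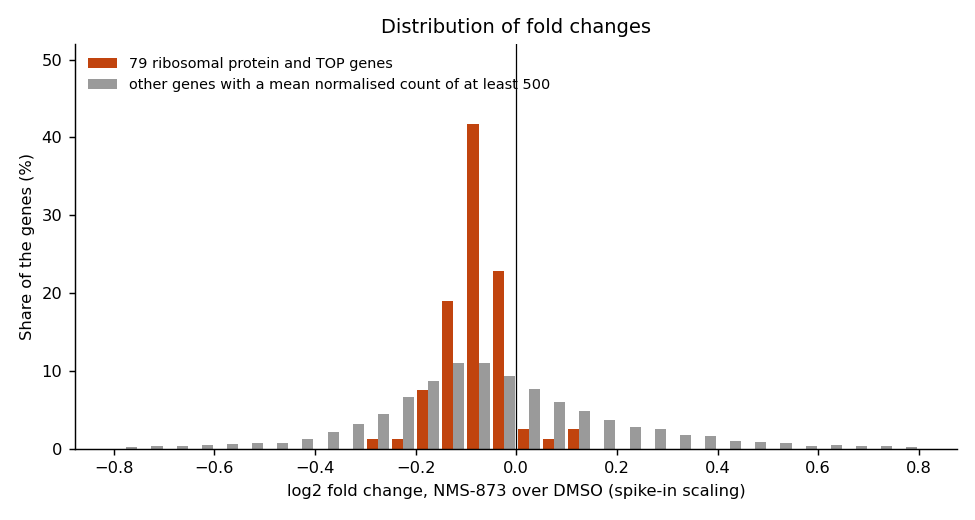
Share of genes (%) in steps of 0.05 of the log2 fold change of NMS-873 over DMSO, for the 79 genes (dark bars) and for 7079 other genes that averaged a normalised count of 500 or more (grey bars), of which 242 lie outside the plotted range. The 79 genes sit in a narrow peak just below 0, between -0.26 and 0.12, inside the much broader distribution of the other genes.

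The direction of this small common shift depended on the scaling of the libraries. With factors taken from the genes in place of the spike-ins, the median log2 fold change of all genes moved to 0.00 and that of the members to 0.03, and 12 members passed as higher and 3 as lower, against 25.3% and 20.9% of all genes tested. With TMM factors (trimmed means of gene ratios), 15 were higher and 2 lower, against 26.3% and 19.8%. With equal library totals, 2 were higher and 28 lower, against 16.6% and 35.7%. With quantile normalisation 1 was higher and 44 lower, against 20.7% and 27.6%. The members' median stayed 0.02 above that of all genes tested under each of these scalings except quantile normalisation, under which it lay 0.06 below. Against the genes of at least 500, the members' median was the lower one under each of them. It was 0.03 against 0.04 with gene-based factors and 0.03 against 0.05 with TMM factors. With equal totals it was -0.08 against -0.06, and with quantile normalisation -0.10 against -0.05.

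It depended as well on the libraries that stood apart. Set against the mean of the DMSO libraries, the median log2 difference over the members was -0.16, -0.04 and -0.03 in NMS-873 replicates 1, 2 and 3. Set against the other 2 DMSO libraries, it was -0.06 and -0.07 in DMSO replicates 1 and 2 and 0.13 in DMSO replicate 3. NMS-873 replicate 1 was thus the low library and DMSO replicate 3 the high one. For NMS-873 replicate 1 the scaling factor was 0.998 from the spike-ins and 0.933 from the genes. For DMSO replicate 3 it was 1.008 from the spike-ins and 1.072 from the genes. Such a gap between the factors applies to genes in general and not to the members alone. Without NMS-873 replicate 1, 1 member was higher and 4 lower, with 16.2% of all genes tested higher and 28.1% lower. Without DMSO replicate 3, 0 were higher and 3 lower, with 15% and 26.9% of all genes tested. Without both libraries 7 were higher and 4 lower, with 17.6% and 25% of all genes tested. The members' median log2 fold change was then -0.03, -0.04 and 0.01 in turn.

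**Figure D3:**
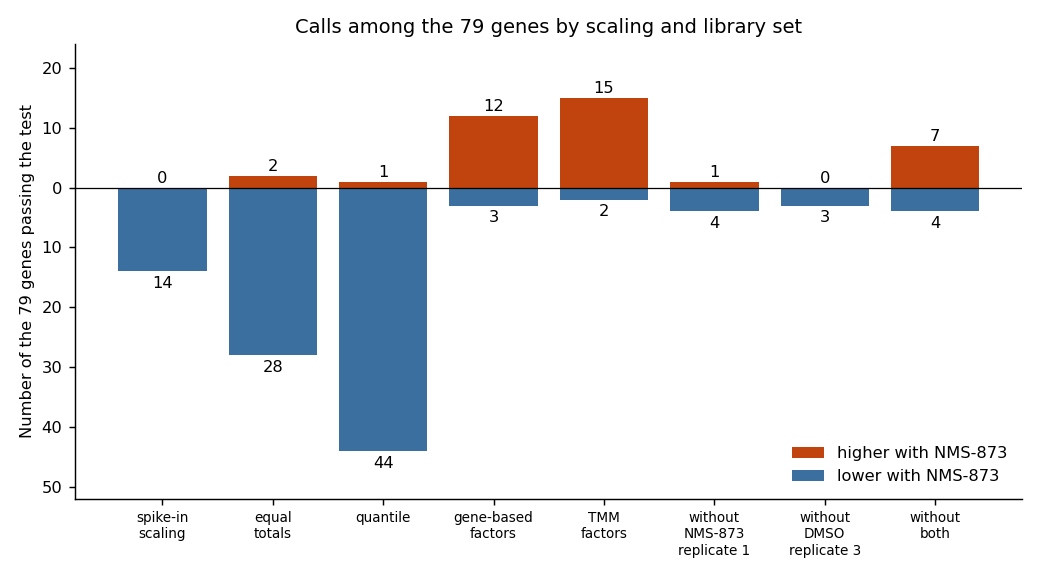
Number of the 79 genes that passed the limma test as higher (bars above 0) or lower (bars below 0) with NMS-873, for 5 ways of scaling the libraries and for 3 sets of libraries under the spike-in scaling. The count of lower genes runs between 2 with TMM factors and 44 with quantile normalisation, and the count of higher genes between 0 and 15.

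Among the small subunit genes, 5 of 28 (17.9%) passed as lower, against 33% of all genes tested: RPS26, RPS25, RPS27, RPS29 and RPS28. RPS26, a protein at the mRNA exit channel (chromosome 12, 56435637 to 56438116, plus strand, hg19), had 3936, 4364 and 4515 normalised counts in NMS-873 libraries, against 4821, 5024 and 5475 in DMSO libraries. Every NMS-873 library was below every DMSO library. The log2 fold change was -0.26 ± 0.05 (SE; limma, adjusted p = 2.03e-05), the largest of any member by size. RPS25, a head protein also used by some viral internal ribosome entry sites (chromosome 11, 118886422 to 118889401, minus strand, hg19), had 5882, 6375 and 6359 normalised counts in NMS-873 libraries, against 7072, 6877 and 7532 in DMSO libraries. The groups did not overlap here either, and the log2 fold change was -0.21 ± 0.05 (SE; limma, adjusted p = 0.000788). RPS26 and RPS25 passed as lower under all 18 alternatives, with log2 fold changes between -0.30 and -0.14 for RPS26 and between -0.23 and -0.09 for RPS25.

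RPS27, RPS29 and RPS28 are short proteins of the small subunit. RPS27 had 10613, 12106 and 12100 normalised counts in NMS-873 libraries, against 12526, 12440 and 13783 in DMSO libraries, a log2 fold change of -0.16 (limma, adjusted p = 0.0207). RPS29 averaged 8023 ± 450 with NMS-873 and 8877 ± 368 with DMSO (SD, n = 3 each), a log2 fold change of -0.15 (limma, adjusted p = 0.0225). RPS28 averaged 2778 ± 148 with NMS-873 and 3042 ± 133 with DMSO, a log2 fold change of -0.13 (limma, adjusted p = 0.0354). In each of the 3 genes the groups did not overlap. All 3 lost the call when NMS-873 replicate 1 or DMSO replicate 3 was left out, and with gene-based or TMM factors. RPSA, the laminin-receptor protein of the small subunit, averaged 29133 ± 1336 with NMS-873 and 31030 ± 1566 with DMSO, and did not pass (limma, adjusted p = 0.26). The other 22 small subunit genes did not pass. All 28 had a log2 fold change below 0 under the spike-in scaling, as had 9912 of all 14889 genes tested.

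Among the large subunit genes, 9 of 41 (22.0%) passed as lower, against 33% of all genes tested. They were RPL35, RPL22, RPL21, RPL41, RPL27A, RPL7A, RPL35A, RPL31 and RPL23A. RPL35, at the nascent chain exit (chromosome 9, 127620159 to 127624260, minus strand, hg19), had 7525, 8064 and 8056 normalised counts in NMS-873 libraries, against 8938, 8661 and 9372 in DMSO libraries. The groups did not overlap, and the log2 fold change was -0.19 ± 0.06 (SE; limma, adjusted p = 0.00252). The call was kept under 17 of 18 alternatives and lost with TMM factors, where the log2 fold change was -0.08 (limma, adjusted p = 0.0525). RPL22 (chromosome 1, 6241329 to 6269449, minus strand, hg19) had 2514, 2749 and 2982 normalised counts in NMS-873 libraries, against 3058, 2854 and 3363 in DMSO libraries. Here the highest NMS-873 library was above the lowest DMSO library, and the log2 fold change was -0.17 ± 0.06 (SE; limma, adjusted p = 0.0064). That call was lost when either of the libraries that stood apart was left out, and with gene-based or TMM factors. RPL41, the shortest ribosomal protein, had 4562, 4814 and 4706 normalised counts in NMS-873 libraries, against 5217, 5046 and 5382 in DMSO libraries. Its groups did not overlap, and its log2 fold change was -0.15 ± 0.05 (SE; limma, adjusted p = 0.0136). That call was kept without NMS-873 replicate 1. It was lost without DMSO replicate 1 or 3, with gene-based or TMM factors and without the variance trend.

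The other 6 lower large subunit genes had log2 fold changes between -0.15 and -0.13, and in each the NMS-873 libraries were all below the DMSO libraries. RPL7A averaged 20699 ± 1027 normalised counts with NMS-873 and 22960 ± 1132 with DMSO (SD, n = 3 each; limma, adjusted p = 0.0401). RPL27A averaged 15415 ± 780.2 with NMS-873 and 17121 ± 1042 with DMSO (limma, adjusted p = 0.03). RPL21, which has 2 snoRNAs within it, averaged 9225 ± 652 with NMS-873 and 10252 ± 714 with DMSO (limma, adjusted p = 0.02). RPL35A averaged 7803 ± 593 with NMS-873 and 8612 ± 445 with DMSO (limma, adjusted p = 0.0258). RPL31 averaged 11336 ± 842 with NMS-873 and 12452 ± 518 with DMSO (limma, adjusted p = 0.0413). RPL23A, whose named pseudogene rows sum to 6.79% of its own mean, was the last to pass, at 8095 ± 454 with NMS-873 and 8835 ± 336 with DMSO (limma, adjusted p = 0.0499). All 6 lost the call when either of NMS-873 replicate 1 and DMSO replicate 3 was left out, and with gene-based or TMM factors.

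The large subunit also held the member second highest by fold change. RPL10A, a protein of the L1 stalk (chromosome 6, 35436185 to 35438562, plus strand, hg19), had 10862, 11520 and 11668 normalised counts in NMS-873 libraries, against 10331, 10336 and 11015 in DMSO libraries. NMS-873 replicates 2 and 3 were above all DMSO libraries and NMS-873 replicate 1 was not. The log2 fold change was 0.10 ± 0.06 (SE) and did not pass (limma, adjusted p = 0.123), but without NMS-873 replicate 1 it was 0.14 and passed (limma, adjusted p = 0.0361). RPL12, a stalk base protein that neighbours the P stalk, had 15481, 16988 and 16910 normalised counts in NMS-873 libraries, against 15647, 15452 and 17111 in DMSO libraries, overlapping groups with a log2 fold change of 0.03 (limma, adjusted p = 0.659). The other 39 large subunit genes all had log2 fold changes below 0.

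The 3 proteins of the P stalk, which recruit the GTPase factors to the ribosome, lay close to 0 and overlapped between the groups. RPLP0 averaged 45879 ± 1881 normalised counts with NMS-873 and 47697 ± 2713 with DMSO (SD, n = 3 each; limma, adjusted p = 0.551). RPLP1 averaged 27747 ± 1674 with NMS-873 and 28202 ± 2028 with DMSO (limma, adjusted p = 0.798). RPLP2 averaged 6563 ± 363 with NMS-873 and 6861 ± 503 with DMSO (limma, adjusted p = 0.355). Their log2 fold changes were -0.06, -0.02 and -0.06.

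The 4 elongation factor genes kept by the naming rule were the part of the group with the least negative median, 0.002 on the log2 scale. EEF2, the translocase that moves the ribosome along the mRNA (chromosome 19, 3976054 to 3985467, minus strand, hg19), had 44311, 46293 and 48362 normalised counts in NMS-873 libraries, against 42199, 40874 and 44439 in DMSO libraries. Only NMS-873 replicate 1 reached down to the DMSO range, just under DMSO replicate 3. The log2 fold change was 0.12 ± 0.07 (SE) and did not pass (limma, adjusted p = 0.144), while voom on the whole reads gave an adjusted p of 0.0385 and the authors' deposited table an adjusted p of 0.0222. It passed at 0.23 with gene-based factors (limma, adjusted p = 1.19e-05), 0.24 with TMM factors (6.96e-06), 0.13 with equal totals (0.00777) and 0.19 without NMS-873 replicate 1 and DMSO replicate 3 (3.64e-06), and was 0.01 with quantile normalisation (0.757). EEF1A1, with the most reads of any member, had 124286, 131375 and 132135 normalised counts in NMS-873 libraries, against 127856, 125573 and 137240 in DMSO libraries. The groups overlapped throughout, and the log2 fold change was -0.01 ± 0.09 (SE; limma, adjusted p = 0.937). EEF1B2, a nucleotide exchange subunit for EEF1A, averaged 11543 ± 504 with NMS-873 and 11440 ± 779 with DMSO (SD, n = 3 each), and EEF1D, a further exchange subunit, 15672 ± 490 with NMS-873 and 15902 ± 631 with DMSO. Neither passed (limma, adjusted p = 0.857 for EEF1B2 and 0.797 for EEF1D).

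Of the 3 other TOP genes, TPT1, which encodes the abundant protein TCTP, had 23467, 24815 and 25357 normalised counts in NMS-873 libraries, against 23137, 22606 and 25194 in DMSO libraries. The groups overlapped, and the log2 fold change was 0.05 ± 0.06 (SE; limma, adjusted p = 0.501). PABPC1, the cytoplasmic poly(A)-binding protein, averaged 32163 ± 1623 with NMS-873 and 33340 ± 1198 with DMSO (SD, n = 3 each; limma, adjusted p = 0.544). NACA, a chaperone subunit that meets nascent chains at the ribosome, averaged 12244 ± 843 with NMS-873 and 12829 ± 745 with DMSO (limma, adjusted p = 0.344).

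**Figure D4:**
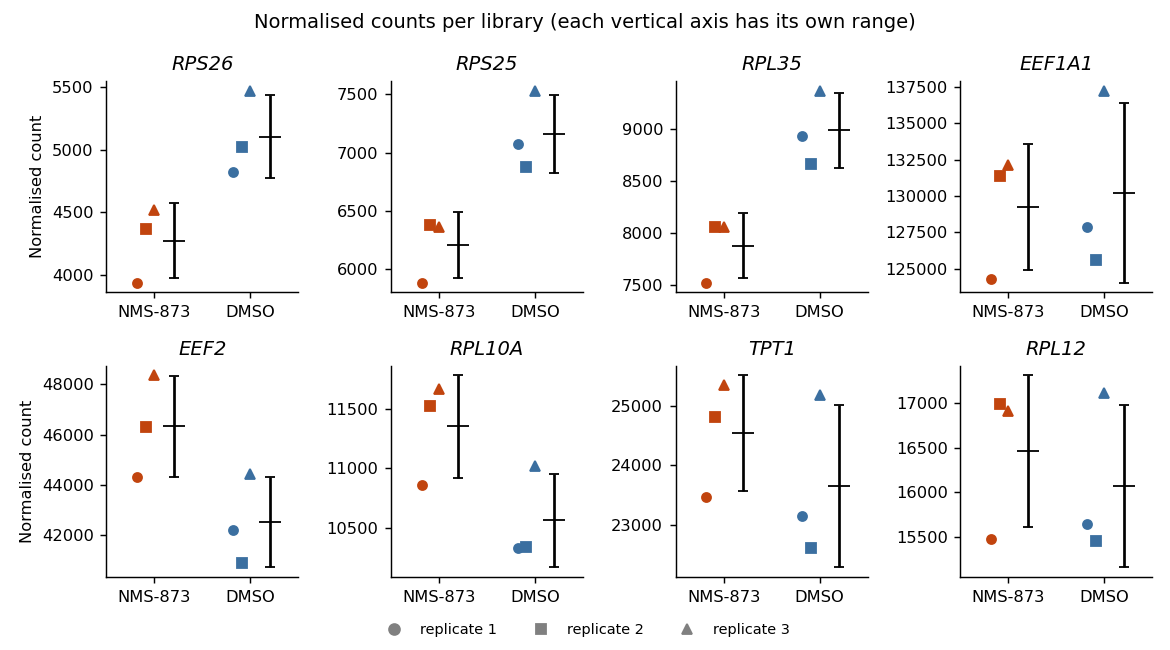
Normalised counts in the 3 NMS-873 and 3 DMSO libraries, one symbol per replicate, with the mean ± SD beside them, for 8 of the 79 genes, each on its own vertical range that does not start at 0. RPS26, RPS25 and RPL35 are lower in every NMS-873 library, EEF2 and RPL10A are higher in NMS-873 replicates 2 and 3, and EEF1A1, TPT1 and RPL12 overlap.

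Members were then compared with one another, by subtracting the median member of each library, so that no scaling factor could move the result. The background of this comparison is 19.9% of all genes tested above the median member and 22.5% below it, and 29.4% and 22.9% among genes with a mean of at least 500. Of the 79 members, 5 stood higher with NMS-873 than the median member did (6.33%) and 6 stood lower (7.59%). EEF2 was 0.19 ± 0.03 higher on the log2 scale (SE; limma, adjusted p = 9.67e-05). RPL10A was 0.17 ± 0.03 higher (limma, adjusted p = 0.000228). TPT1 was 0.12 ± 0.03 higher (limma, adjusted p = 0.00316), RPL12 0.10 ± 0.03 (limma, adjusted p = 0.00919) and EEF1B2 0.08 ± 0.03 (limma, adjusted p = 0.0415). On the other side, RPS26 stood at -0.19 ± 0.04 (SE; limma, adjusted p = 0.00062), RPS25 at -0.14 ± 0.03 (limma, adjusted p = 0.00188) and RPL35 at -0.12 ± 0.03 (limma, adjusted p = 0.00434). RPS27, RPL7A and RPL27A followed between -0.09 and -0.08 (limma, adjusted p = 0.0378, 0.0267 and 0.0395 in that order).

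EEF2, RPL10A, RPS26 and RPS25 kept this call under all 15 alternatives, RPL35 and TPT1 under 14 and RPL12 under 13. EEF1B2 kept it under 8, RPS27 and RPL27A under 6 and RPL7A under 5. With NMS-873 replicate 1 and DMSO replicate 3 both left out, 6 members stood higher and 4 lower than the median member. The shares of all genes for that fit are not given here, so these counts have no background beside them.

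Fold change went with coding length among the members. Over all 79, Spearman's rho between coding length and log2 fold change was 0.56 and Pearson's r with log2 length 0.52. Over 6906 other genes with a mean of at least 500, of any coding length, rho was 0.07 and r 0.005. Genes are not independent replicates and share the same 6 libraries, so these values are descriptive. The 15 members with up to 350 coding bases had a median log2 fold change of -0.11 and 6 of them passed as lower, against a median of -0.15 and 52% lower among 279 other genes of that length. The 31 with over 350 and up to 500 bases had a median of -0.09 with 7 lower, against -0.11 and 42.9% of 413 other genes. The 15 with over 500 and up to 700 bases had a median of -0.05 with 0 lower, against -0.10 and 37.5% of 618 other genes. The 18 longer members had a median of -0.05 with 1 lower, RPL7A, against -0.05 and 31.5% of 4537 other genes. The class medians thus rose with length in the other genes too.

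The pattern with length was present in each NMS-873 library. Against the mean of the DMSO libraries, rho over the members was 0.46, 0.53 and 0.54 in NMS-873 replicates 1, 2 and 3, which share those DMSO libraries. In DMSO replicates 1, 2 and 3, each against the other DMSO libraries, rho was 0.05, 0.15 and -0.15. With NMS-873 replicate 1 and DMSO replicate 3 both left out, rho over the members was 0.53. Level went with length too, with a rho of 0.44 between coding length and mean FPKM, and 0.25 between mean FPKM and log2 fold change. The GC content of the transcript had a rho of 0.22 with log2 fold change over the members and -0.21 over the other genes. The part of level or GC content in the relation with length was not tested.

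**Figure D5:**
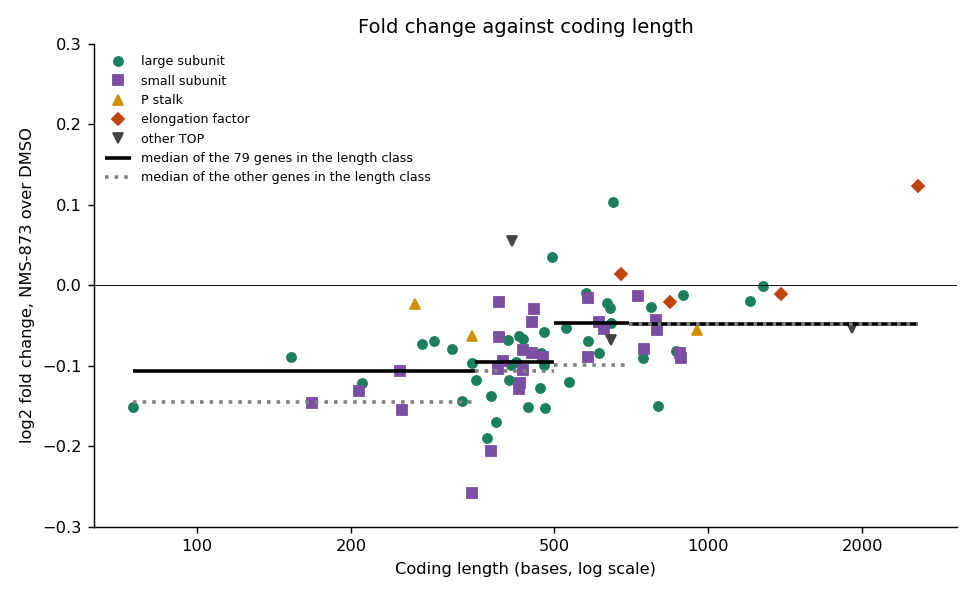
Log2 fold change of NMS-873 over DMSO against coding length in bases (log scale) for the 79 genes, by subgroup, with the median of the 79 genes (solid) and of other genes that averaged a normalised count of 500 or more (dotted) in 4 length classes. The 79 genes run between -0.26 for RPS26 and 0.12 for EEF2, the longest, and the solid medians lie at -0.11, -0.09, -0.05 and -0.05.

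Members with and without the TOP motif at the annotated start had like fold changes. The 48 with it and the 15 without it both had a median log2 fold change of -0.08, with 10 (20.8%) and 3 (20%) of them lower. Because 59 of these 63 members had the motif within 10 bases of the start, most of the 15 had it nearby. The split is therefore mostly one of position and cannot compare members with and without a TOP sequence. Other genes of at least 500 also had equal medians, -0.06 for the 419 with the motif and -0.06 for the 5108 without. Of these, 32.5% and 33.6% were lower. Over the 48 members with the motif, rho between the length of the pyrimidine run and log2 fold change was 0.11. The 31 members with a snoRNA gene within them had a median of -0.07, with 4 lower (12.9%). The 48 without one had a median of -0.08, with 10 lower (20.8%), against 33% of all genes tested.

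Reads of the members can be split with near-identical copies. The table lists 799 rows named after 75 of the members as pseudogenes, of which 39 averaged at least 10 normalised counts. Of these 39, 1 was higher and 3 lower (background 14.9% higher and 33% lower of all genes tested). RPS2P46, with a mean of 8763 against 35936 for RPS2, makes the level of RPS2 uncertain. For RPS26, RPS25, RPL35, EEF2 and RPL10A the named pseudogene rows together came to less than 0.1% of the gene's own mean.

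Ribosomal protein genes outside the naming rule gave 1 higher and 3 lower of 11 tested (background 14.9% higher and 33% lower of all genes tested), with a median log2 fold change of -0.10. RPL22L1, the paralogue of RPL22, had 2302, 2427 and 2480 normalised counts in NMS-873 libraries, against 2046, 2042 and 2245 in DMSO libraries. All NMS-873 libraries were above all DMSO libraries, with a log2 fold change of 0.19 ± 0.05 (SE; limma, adjusted p = 0.00239), opposite in sign to that of RPL22. RPL39L, the paralogue of RPL39, averaged 403 ± 32.2 with NMS-873 and 480 ± 57.1 with DMSO (SD, n = 3 each), a log2 fold change of -0.25 (limma, adjusted p = 0.00353) with overlapping groups. RPS27L, the paralogue of RPS27, averaged 2707 ± 235 with NMS-873 and 2999 ± 148 with DMSO, a log2 fold change of -0.15 (limma, adjusted p = 0.0162) with overlapping groups. RPL39L and RPS27L lost the call with gene-based factors (log2 fold change -0.14 for RPL39L and -0.05 for RPS27L) and without DMSO replicate 3.

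Other mRNAs reported to carry a TOP sequence gave 1 higher and 2 lower of 12 (background 14.9% higher and 33% lower of all genes tested), with a median log2 fold change of -0.03. IPO7, an importin, averaged 14077 ± 526 with NMS-873 and 12782 ± 549 with DMSO (SD, n = 3 each), a log2 fold change of 0.14 (limma, adjusted p = 0.0397). VIM, the intermediate filament vimentin, had a log2 fold change of -0.20 (limma, adjusted p = 0.015), and HNRNPA1, an hnRNP protein, one of -0.16 (limma, adjusted p = 0.0298). Subunits of initiation factor eIF3 in the list did not pass. VIM lost the call without DMSO replicate 3 (log2 fold change -0.16; limma, adjusted p = 0.0678), and HNRNPA1 and IPO7 lost it when single libraries were left out.

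Genes that act on TOP mRNAs or in the mTORC1 pathway gave 5 higher and 6 lower of 21 (background 14.9% higher and 33% lower of all genes tested), with a median log2 fold change of -0.04. LARP1B, a relative of LARP1, had 811, 829 and 760.1 normalised counts in NMS-873 libraries, against 324, 359 and 387 in DMSO libraries, with no overlap and a log2 fold change of 1.17 ± 0.07 (SE; limma, adjusted p = 1.38e-40). PDCD4, an inhibitor of the initiation helicase eIF4A, averaged 706 ± 32.0 with NMS-873 and 339.9 ± 32.3 with DMSO (SD, n = 3 each), a log2 fold change of 1.06 (limma, adjusted p = 5.69e-34). RPTOR, the mTORC1 subunit that selects its substrates, averaged 1418 ± 47.7 with NMS-873 and 1972 ± 77.4 with DMSO, a log2 fold change of -0.48 (limma, adjusted p = 2.94e-14). LARP1 itself averaged 7546 ± 283 with NMS-873 and 8341 ± 323 with DMSO, a log2 fold change of -0.14 (limma, adjusted p = 0.0233), with no overlap. That value holds for the spike-in scaling, under which the median of all genes tested was -0.10. With gene-based factors this median was 0.00, and the value of LARP1 there is not given here. LARP1, like RPL5, falls outside the rule for named genes and was chosen after its value was seen.

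Partners of the elongation factors and of termination gave 2 higher and 6 lower of 18 (background 14.9% higher and 33% lower of all genes tested), with a median of -0.06. EEF2K, the kinase that phosphorylates and inhibits EEF2, had 341, 347 and 349 normalised counts in NMS-873 libraries, against 529, 488 and 492 in DMSO libraries. The groups were far apart, with a log2 fold change of -0.54 ± 0.07 (SE; limma, adjusted p = 7.99e-11). METTL13, a methyltransferase of EEF1A, averaged 1332 ± 58.6 with NMS-873 and 1652 ± 36.6 with DMSO (SD, n = 3 each), a log2 fold change of -0.31 (limma, adjusted p = 7.08e-07). ETF1, the release factor that reads stop codons, averaged 7002 ± 272 with NMS-873 and 5850.1 ± 336 with DMSO, a log2 fold change of 0.26 (limma, adjusted p = 1.92e-05). EEF1A2 and EIF5A, elongation factors outside the naming rule, were among the 6 lower. Each had a log2 fold change of -0.14 (limma, adjusted p = 0.0239 for EEF1A2 and 0.0371 for EIF5A). Both values hold for the spike-in scaling, under which the median of all genes tested was -0.10. Their values with gene-based factors are not given here. These 2 genes fall outside the rule for named genes and were chosen after their values were seen.

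Dedicated chaperones and importers of ribosomal proteins gave 1 higher and 4 lower of 11 (background 14.9% higher and 33% lower of all genes tested), with a median of -0.05. TSR2, the chaperone that delivers RPS26 to the pre-ribosome, had 803, 887 and 948 normalised counts in NMS-873 libraries, against 1079, 1050 and 1112 in DMSO libraries. The groups did not overlap, and the log2 fold change was -0.30 ± 0.06 (SE; limma, adjusted p = 9.33e-06), of the same sign as that of RPS26. HEATR3, which serves the import of RPL5, averaged 367 ± 27.2 with NMS-873 and 459 ± 4.32 with DMSO (SD, n = 3 each), a log2 fold change of -0.33 (limma, adjusted p = 9.79e-05). RPL5 itself had a log2 fold change of -0.01 and did not pass (limma, adjusted p = 0.886). PDCD2L, a paralogue of the RPS2 chaperone PDCD2, averaged 196 ± 24.7 with NMS-873 and 151 ± 14.5 with DMSO, a log2 fold change of 0.37 (limma, adjusted p = 0.00137).

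Genes of ribosome-associated quality control and of UFMylation, the conjugation of UFM1 to the large subunit, gave 10 higher and 2 lower of 28 (background 14.9% higher and 33% lower of all genes tested), with a median of 0.05. GTPBP2 averaged 2066 ± 137 with NMS-873 and 1143 ± 34.8 with DMSO (SD, n = 3 each), a log2 fold change of 0.85 (limma, adjusted p = 3.9e-35). GTPBP1, its paralogue and like it a GTPase linked to the resolution of stalled ribosomes, averaged 1026 ± 39.6 with NMS-873 and 716 ± 40.7 with DMSO, a log2 fold change of 0.52 (limma, adjusted p = 8.54e-14). PELO, which with HBS1L splits stalled ribosomes, averaged 1543 ± 27.7 with NMS-873 and 1012 ± 56.2 with DMSO, a log2 fold change of 0.61 (limma, adjusted p = 3.45e-20). In each of the 3 genes all NMS-873 libraries were above all DMSO libraries.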

How the data were processed

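The authors deposited one table of FPKM per library, scaled by spike-in size factors, as recovered from the values; genome build hg19, featureCounts 1.5.1 and DESeq2 1.16.1 are named in the submitters' processing notes, with no aligner named there. The deposited mean normalised count (unit signal, reads over size factor) is the authors', per the file headers. The authors' log2 fold change and adjusted p-value are used where the deposited table is named. Deposited values are FPKM where normalised counts had been assumed, so each gene's normalised count was rebuilt as FPKM times mean normalised count over mean FPKM; 100% of values were whole reads within 0.001.

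limma 3.58.1 (R 4.3.3) was fitted to log2(normalised count + 1), with a variance trend, on 14889 genes with a mean of at least 10, NMS-873 over DMSO, two-sided, Benjamini-Hochberg adjusted, threshold 0.05. Fold changes are on that scale. Alternatives changed scaling, count minimum, pseudocount, variance trend, replicate block and libraries. Coding lengths are medians over consensus coding transcripts; promoter windows are RefSeq's. Named genes were all members that passed, the 5 highest and 5 lowest, all not numbered RPL or RPS, the 3 highest and 3 lowest by FPKM, those that passed against the median member, and up to 3 per list. Members and lists were chosen with earlier results of these data known. The test was checked on simulated data. Some members and list genes are not reported by name here.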

Additional observations from a re-analysis of the deposited data

How the results depend on the processing

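With the main settings 0 members were higher and 14 lower, and 5 stood higher and 6 lower than the median member. The count higher was 12 with gene-based factors, 15 with TMM factors, 2 with equal totals, 1 with quantile normalisation and 1 with voom; the count lower in the first 4 was 3, 2, 28 and 44. The count lower was 5 with no count minimum, 4 on log2(FPKM + 0.1) and 3 without the variance trend. Of all 14889 genes tested, 2217 were higher and 4910 lower with the main settings, and 1801 and 3706 without the variance trend. The counts over all genes with no count minimum and on log2(FPKM + 0.1) are not given here. Leaving out each library in turn gave 0 to 1 higher and 3 to 17 lower, and 3 to 5 higher and 3 to 7 lower than the median member. In these fits 1870 to 2406 of all genes tested were higher and 4005 to 4957 lower with NMS-873. Leaving out both NMS-873 replicate 1 and DMSO replicate 3, an alternative chosen after seeing the data, gave 7 higher and 4 lower. Against the median member, 3 were lower with no count minimum, 9 higher and 2 lower on log2(FPKM + 0.1), and 2 higher and 3 lower without the variance trend. The replicate block gave 0 higher and 21 lower, with 2352 of all genes tested higher and 5255 lower, and 11 members lower than the median member. For the alternatives, the counts of all genes against the median member are not given here. Deviations of same-numbered libraries were near uncorrelated (r = 0.04, -0.03 and 0.04), as were those of differently numbered ones (-0.0716 to 0.035). Whether the numbers pair the libraries cannot be told from these values. The rank correlation with coding length was 0.42 with quantile normalisation and 0.50 to 0.57 without single libraries. Of 900 values of 50 named genes, 696 kept direction and call, 129 lost the call, 25 gained one and 50 changed sign, all in genes not called with the main settings. With gene-based factors the log2 fold change became EEF1A1 0.0941, EEF1D 0.0835, RPS15A 0.0839, RPLP1 0.0814, RPL8 0.0767, PABPC1 0.0517, RPLP0 0.0488, RPLP2 0.0412, RPL26 0.0372, NACA 0.0362, RPL39 0.0146, RPSA 0.0134 and RPS12 0.01. With TMM factors it became EEF1A1 0.1033, RPS15A 0.0931, EEF1D 0.0926, RPLP1 0.0906, RPL8 0.0859, PABPC1 0.0609, RPLP0 0.058, RPLP2 0.0504, RPL26 0.0463, NACA 0.0453, RPL39 0.0238, RPSA 0.0226 and RPS12 0.0191. Without both libraries it became RPLP1 0.0829, EEF1A1 0.0563, RPL8 0.0542, RPLP2 0.0372, RPS15A 0.0369, EEF1D 0.034, NACA 0.0336, RPLP0 0.0254, RPL26 0.0244, PABPC1 0.016 and RPL39 0.0067. Without single libraries it ran between -0.0358 and 0.0283 for EEF1A1, -0.0143 and 0.0699 for EEF1B2, -0.0436 and 0.0118 for EEF1D, -0.0587 and 0.0179 for RPL8, -0.0623 and 0.0349 for RPLP1, and -0.0477 and 0.025 for RPS15A. Of these, EEF1D passed as higher with gene-based and TMM factors and RPLP1 without both libraries. The cause was not tested. Differences of a few percent per gene are at the limit of 3 libraries.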
